A study of Mus musculus with 21 samples.

Results

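The 37 genes described here are transcribed mainly in dividing cells, in S phase, when DNA is copied, and in mitosis, when the copies are parted. They were taken by gene symbol from a table of normalized read counts of 41128 gene symbols, and all 37 were found in it. RNA was sequenced from striatal tissue of wild type mice, collected 3 weeks after adeno-associated virus (AAV, a carrier of genes that does not replicate) had been delivered to the striatum. The 21 libraries fall into 2 sets that the authors scaled apart. Set A holds 3 libraries each labelled WT, Cas9 and GCas9, and set B holds 4 each labelled GFP, Cas9 and GCas9. Cas9 is a nuclease used for genome editing, and GFP, a green fluorescent protein, is a common control cargo. What the G in GCas9 stands for is not given by the labels. The study is known for a Cas9 that carries a piece of Geminin, a replication inhibitor that cells degrade from the end of mitosis through G1. All groups share the wild type background, and whether a virus was given to the WT mice is not stated. The promoter and the guide RNA of the vectors are not given in the labels used here. The age is given as 3 weeks in 1 label and as 3 months in another, for every library.

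Cells enter S phase when cyclin E kinases and E2F factors switch on the genes of DNA synthesis. They go on to mitosis under cyclin A, cyclin B and Cdk1, and the anaphase-promoting complex then ends mitosis by marking the cyclins for destruction. Neurons of the adult striatum have left the cycle, and the dividing cells of this region are mostly glia, cells of the nearby subventricular zone, where neuroblasts are made, and immune cells that enter from blood. In bulk tissue, fewer cells of a type and less RNA per cell cannot be told apart.

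The promoters of late cell cycle genes often carry a cell cycle homology region (CHR) and CCAAT boxes, the elements through which repressive and activating complexes act on them. RefSeq promoters (GRCm38.p6, from 250 bases before to 50 bases after the start) were matched for 32 of the 37 members, and Ccna2, Ccne2, Aurkb, Kif20a and Tpx2 had no entry. A CHR, searched on both strands as TTTGAA and as its variant TTTAAA, was present in 23 of the 32 (71.9%) and in 27.8% of all 27025 promoters of the same length. CCAAT, searched on both strands, was present in 71.9% of the members and 37.9% of all promoters. Both together were present in 62.5% of the members and 10.9% of all promoters. The E2F motifs, searched on both strands as TTCGCGC, as the variant TTCCCGC and as the variant TTGGCGC, were present in 25% and 8.21%. The motifs searched do not contain one another, and a match is a description of the sequence only. The 250 bases before the start are shown for Cdk1 (chr10:69352913-69353162), Top2a (chr11:99024190-99024439) and Ccnb2 (chr9:70421555-70421804), all on the minus strand. Among the members with CHR and CCAAT both within these 250 bases, these 3 had the largest estimates between GCas9 and WT in set A. Ttk, with a larger estimate than Top2a and Ccnb2, has its only CHR after the start. The capitals mark CHR, CCAAT (read as ATTGG on the other strand) and E2F motifs.
Cdk1: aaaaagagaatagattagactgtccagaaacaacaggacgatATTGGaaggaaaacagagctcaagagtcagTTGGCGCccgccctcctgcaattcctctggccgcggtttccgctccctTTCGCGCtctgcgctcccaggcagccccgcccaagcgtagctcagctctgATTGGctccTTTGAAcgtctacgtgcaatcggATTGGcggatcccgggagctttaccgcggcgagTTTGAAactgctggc
Top2a: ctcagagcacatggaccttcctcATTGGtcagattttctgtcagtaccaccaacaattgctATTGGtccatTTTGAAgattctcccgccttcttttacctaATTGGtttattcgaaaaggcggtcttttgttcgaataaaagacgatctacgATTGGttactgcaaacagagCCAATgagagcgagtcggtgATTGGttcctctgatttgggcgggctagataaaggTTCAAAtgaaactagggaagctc
Ccnb2: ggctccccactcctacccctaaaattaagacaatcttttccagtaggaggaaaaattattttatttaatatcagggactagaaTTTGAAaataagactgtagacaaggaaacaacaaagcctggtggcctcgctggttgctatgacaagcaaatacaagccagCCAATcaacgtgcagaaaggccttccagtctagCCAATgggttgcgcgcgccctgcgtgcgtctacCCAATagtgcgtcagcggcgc
In Cdk1, a TTTGAA begins 15 bases and another 71 bases before the start. In Top2a, 1 lies on the other strand 23 bases before the start and another 179 bases before it, with 6 CCAAT boxes 58 to 227 bases before it. In Ccnb2 the 3 CCAAT boxes begin 21, 54 and 87 bases before the start.

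Levels below are normalized read counts, the reads of a gene divided by 1 size factor of its library, listed from replicate 1 upward and comparable within a set only. Gene reads per library ran from 20.34 to 28.05 M for set A and from 6.092 to 11.07 M for set B, in which every Cas9 library (6.092 to 7.694 M) was shallower than every GFP library (7.894 to 9.749 M). Medium spiny neuron markers, such as Ppp1r1b, Penk and Drd2, were high in every library, the mean log2 level of the 10 markers lying between 12.71 and 14.24. For the members, single libraries stood apart. GCas9 replicate 3 of set A was the highest of its group for 35 of the 37 members and GCas9 replicate 2 the lowest for 36. In set B, GCas9 replicate 4 was the lowest of its group for 27 members, GFP replicate 4 for 27 and Cas9 replicate 1 for 29. The SD of log2 levels within a group had a median over the members of 0.53 in GCas9 of set A, against 0.13 over all genes tested there, and of 0.64 against 0.19 in GCas9 of set B. The labels do not say that replicates are separate animals, so p-values measure only the spread between these libraries. Every pair of replicates differed by more than counting noise.

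**Figure D1:**
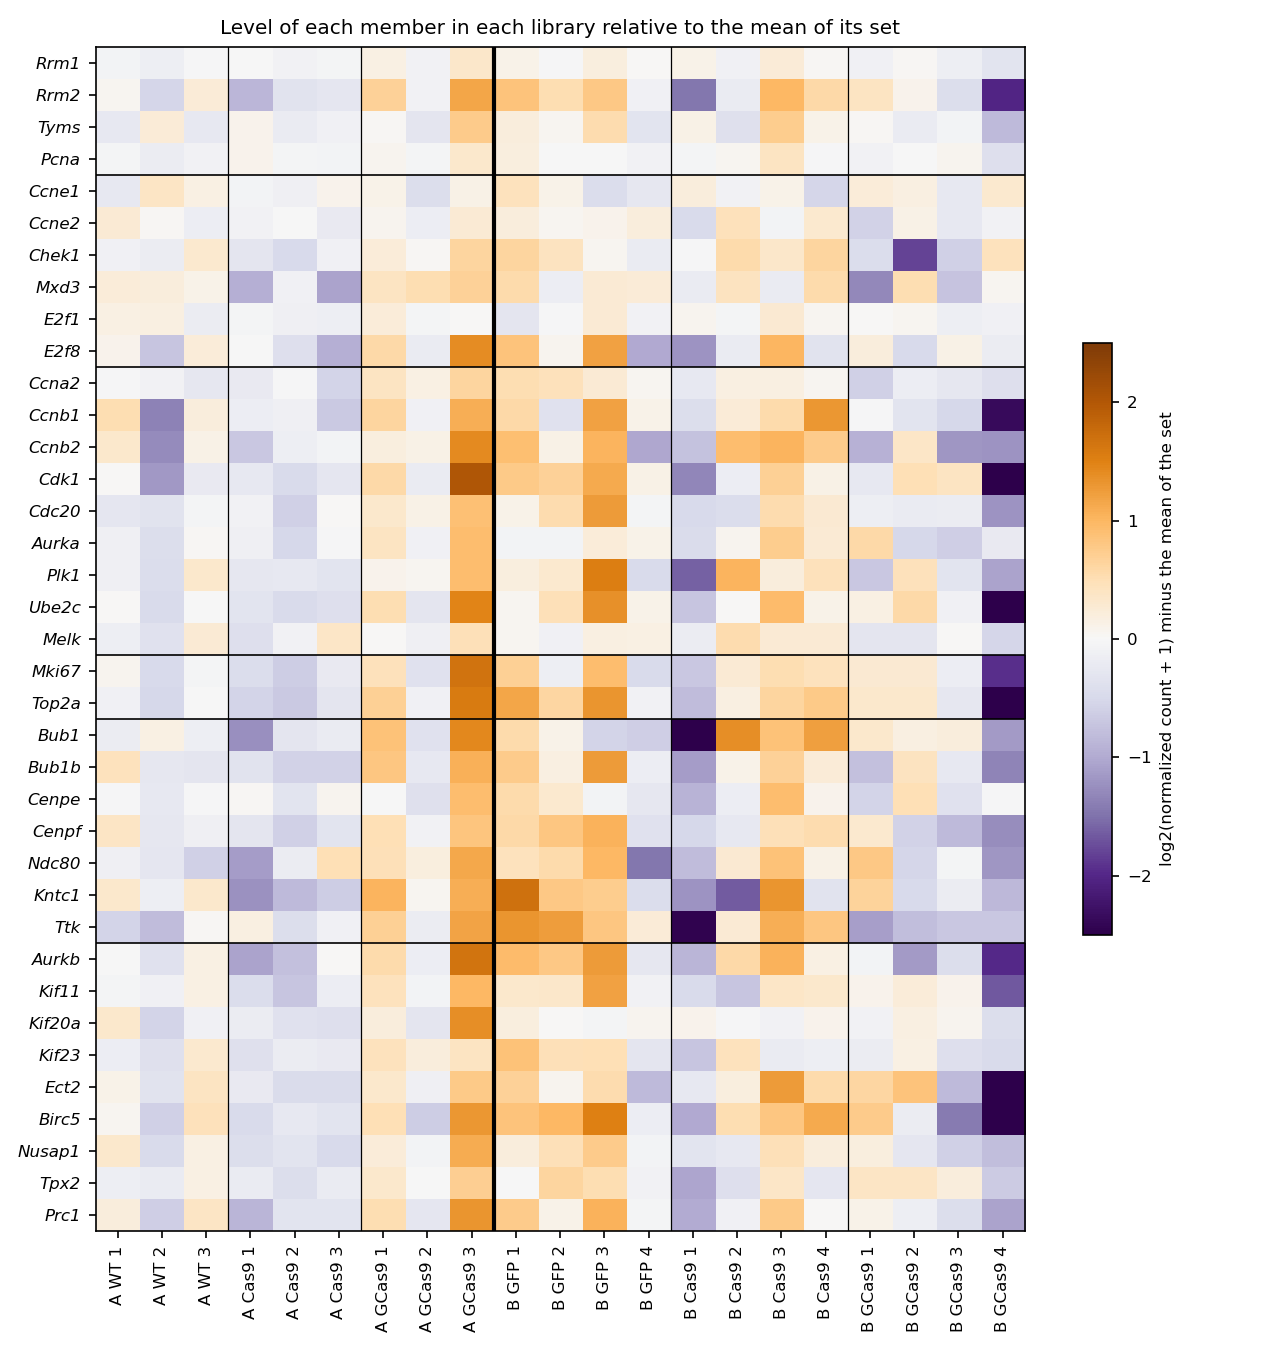
Level of each of the 37 members (rows, grouped by role) in each of the 21 libraries (columns), as log2(normalized count + 1) minus the mean of the library's set, with colours ending at 2.5 on either side. GCas9 replicate 3 of set A is the highest of its group for 35 members, and GCas9 replicate 4 of set B is the lowest of its group for 27.

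Per kilobase of exon, which allows levels of different genes to be set side by side, the WT libraries of set A ran from 243 ± 11.1 normalized counts per kb for Pcna to 2.06 ± 0.35 for Ndc80 (SD, n = 3). Pcna, the sliding clamp of the replication fork, also works in DNA repair outside S phase. It was followed by E2f1 at 64.0 ± 8.48, Ccne2 at 47.5 ± 7.05, Ccne1 at 43.6 ± 9.46 and Rrm1 at 41.7 ± 1.52 counts per kb. From E2f1 to Rrm1, each level lay within 2 SD of the next. The order is thus headed by genes of G1, S phase and repair. Mki67 (23.7 ± 4.60) and Top2a (22.7 ± 4.05) lay within 1 SD of each other. Next above Ndc80 lay Ttk at 2.63 ± 0.88, Kntc1 at 4.37 ± 0.79, E2f8 at 4.54 ± 1.48 and Bub1 at 4.62 ± 0.63 counts per kb, of which all but E2f8 are kinetochore and checkpoint genes. Kif20a, a mitotic kinesin, was at 33.3 counts per kb in GFP of set B, the third highest after Pcna and E2f1, and its exons overlap those of Cdc23 on the other strand over 1271 bases. The strand setting of the counting is not given in the sources used here, so reads from such overlaps cannot be assigned to a strand. The exons of Ccne2, among the highest per kb in WT, likewise overlap those of Ints8 over 609 bases, and Ints8 was at a mean of 562.2 normalized counts in WT. Overlaps on the other strand were also found for Prc1 (911 bases), E2f8 (610), Ube2c (592), Nusap1 (172), Plk1 (156) and Cdc20 (53).

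In set A, 36 of the 37 members had a higher estimate with GCas9 than in WT and 36 had a higher estimate than with Cas9, while with Cas9 28 of 37 had a lower estimate than WT, beside 50.8% of all genes. In set B the estimates lay the other way, 35 of 37 being lower with GCas9 than with GFP. No member passed the test in any comparison. The test was limma on log2(normalized count + 1) over all genes with a mean of at least 10, adjusted over all of them, with a threshold of 0.05. The filter kept all 37 members in set A and 32 in set B, where Bub1, Ndc80, E2f8, Kntc1 and Ttk lay below it.

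Between GCas9 and WT in set A, 0 of 37 members passed, against 0.00628% of the 15924 genes tested. At an unadjusted p under 0.05, 6 members were higher (Pcna, Ccna2, Cdc20, Ttk, Cdk1 and Top2a), where 4.44% of all genes were. The 36 higher estimates stand beside 49.9% of all genes, and the median log2 fold change was 0.52 over the members and 0.00 over all genes. In 5 members (13.5%) all GCas9 libraries lay above all WT libraries, namely Ccna2, Cdc20, Pcna, Ndc80 and Mxd3, where 9.16% of all genes did so. The quasi-likelihood test of edgeR and DESeq2, both on recovered reads, also called 0 members, where 1 and 218 of all genes passed. For these tools, here and below, counts at an unadjusted p under 0.05 take either direction. These were 7 and 8 members, and 1370 and 1395 of all genes. The count of 6 was 1 without GCas9 replicate 3, where 2.16% of all genes were higher, or without WT replicate 2 (2.68%). It was 2 without WT replicate 1 (2.39%) or GCas9 replicate 1 (5.14%), and 23 without GCas9 replicate 2 (7.53%). The median was 0.22 without GCas9 replicate 3 and 0.83 without GCas9 replicate 2. The 5 members without overlap became 26 without GCas9 replicate 2, 12 without WT replicate 3 and 9 without WT replicate 1. Leaving out a library can only keep or raise a count without overlap, for members and for all genes, here and below. The share of all genes without overlap was not counted with a library left out.

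Between GCas9 and Cas9 in set A, 21 of 37 members were higher at an unadjusted p under 0.05 where 2.38% of all genes were, but 0 passed after adjustment (0% of all genes did, smallest member limma adjusted p = 0.89). The median log2 fold change was 0.74 over the members and 0.01 over all genes, and the 36 higher estimates stand beside 54.3% of all genes. In 21 members (56.8%) all GCas9 libraries lay above all Cas9 libraries, where 4.4% of all genes did so. They included 7 of the 9 cyclins, kinases and anaphase-promoting complex genes, 6 of the 9 spindle and cytokinesis genes and 3 of the 7 kinetochore and checkpoint genes, together with Top2a, Rrm2, Chek1, Mxd3 and E2f1. edgeR and DESeq2 called 0 members, where 0 and 2 of all genes passed. At an unadjusted p under 0.05 they gave 23 and 22, where 925 and 890 of all genes were. Without GCas9 replicate 3 the limma count of 21 at that p was 9 (1.73% of all genes) and the median 0.48. The count was 13 without GCas9 replicate 1 (1.32%), Cas9 replicate 1 (2.48%) or Cas9 replicate 2 (5.97%). Without GCas9 replicate 2, 32 members had no overlap. This comparison shares its GCas9 libraries with the one before, so the values are given side by side and not as separate support.

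Between Cas9 and WT in set A, 2 members were lower at an unadjusted p under 0.05, Kntc1 and Mxd3, where 5.65% of all genes were, and 0 passed after adjustment (0.00628% of all genes did). The median was -0.20 over the members and 0.00 over all genes. In 6 members (16.2%), namely Bub1, Bub1b, Kif11, Cenpf, Kntc1 and Mxd3, all Cas9 libraries lay below all WT libraries, where 8.86% of all genes did so. edgeR and DESeq2 called 0 members, where 0 and 116 of all genes passed. At an unadjusted p under 0.05 each gave 2 members, where 1949 and 2082 of all genes were. Without WT replicate 2, the lowest of its group for 28 members, the median was -0.40 and 23 members had no overlap, and without Cas9 replicate 3 there were 10.

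**Figure D2:**
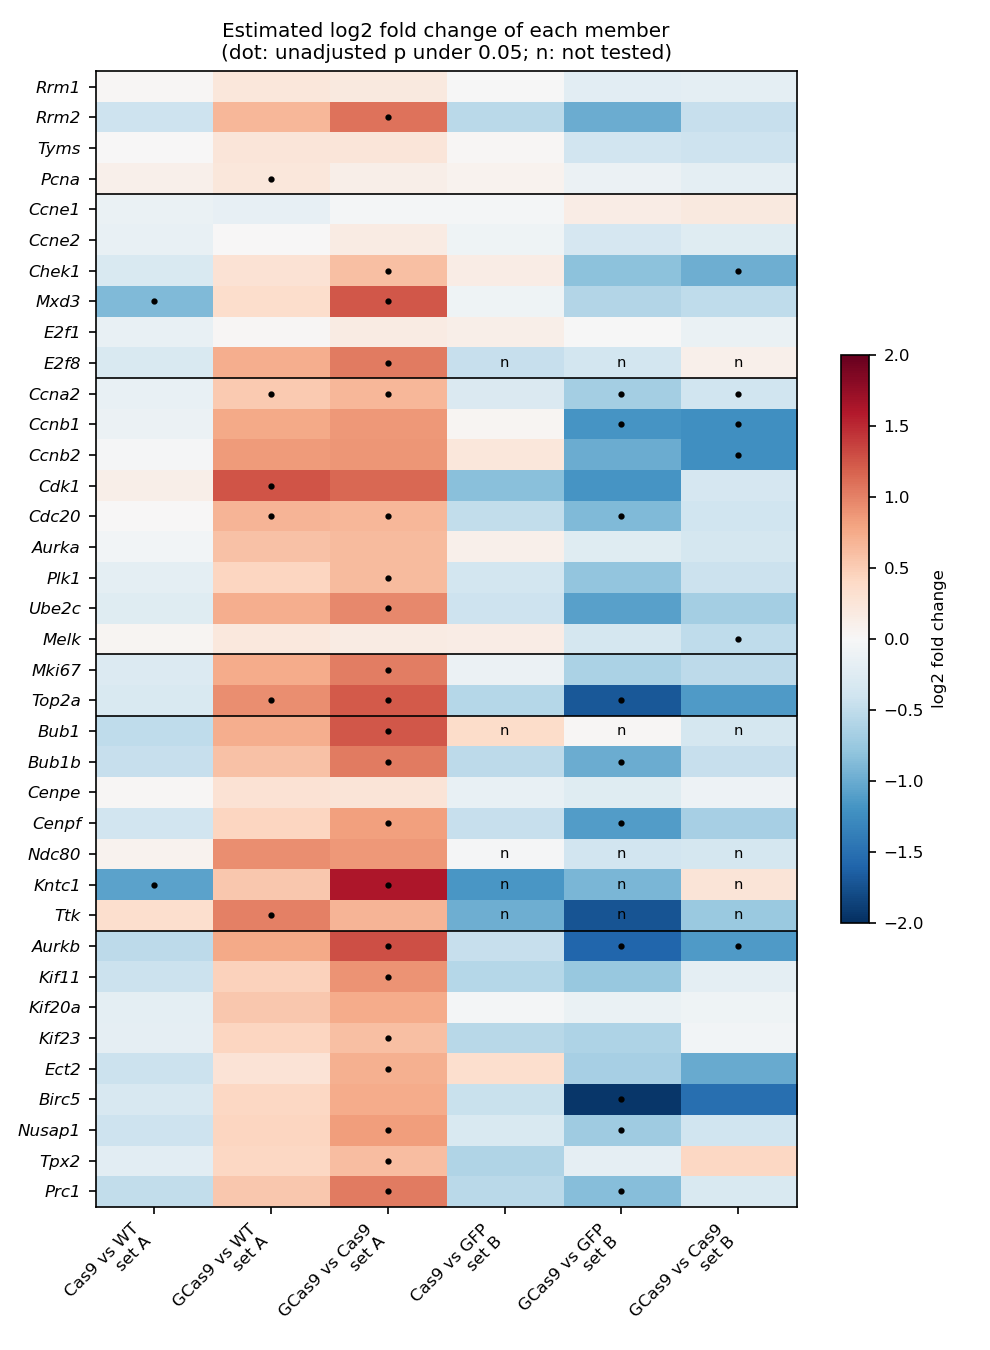
Estimated log2 fold change of each member (rows, grouped by role) in the 6 comparisons within a set (columns). Dots mark an unadjusted p under 0.05, and n marks members under the filter in set B, whose colours are estimates from a fit with no filter; 36 of 37 estimates are above 0 in each GCas9 column of set A.

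Between GCas9 and GFP in set B, 31 of the 32 tested members had a lower estimate, beside 50.9% of all 15428 genes tested. At an unadjusted p under 0.05, 10 were lower (Ccna2, Aurkb, Cenpf, Cdc20, Bub1b, Prc1, Nusap1, Ccnb1, Birc5 and Top2a), where 2.76% of all genes were. After adjustment 0 passed by limma (0% of all genes did). edgeR called 0, with 9 at an unadjusted p under 0.05, where 1062 of all genes were. DESeq2 called 1, Ccna2, at an adjusted p of 0.033, where 41 of all genes passed. It gave 10 members at an unadjusted p under 0.05, where 992 of all genes were. The median was -0.70 over the members and 0.00 over all genes, and -0.27 over the members with a mean of at least 50. That cut kept Top2a, Ccna2, Pcna, Rrm1, E2f1 and Ccne1, among others. It dropped most mitosis genes, such as Aurkb, Birc5 and Ccnb1, so -0.70 and -0.27 cover different genes. Of the 32, 2 (6.25%) had all GCas9 libraries below all GFP libraries, Ccna2 and Cdc20, where 1.66% of all genes did so, and Ttk, under the filter, did as well. The limma count of 10 was 2 without GFP replicate 3, where 2.16% of all genes were lower, and 3 without GCas9 replicate 4 (2.16%). It was 6 without GFP replicate 1 (1.82%) and 16 without GCas9 replicate 2 (4.31%). Of all 37, the 3 members without overlap became 14 without GFP replicate 4, 9 without GCas9 replicate 1, 6 without GCas9 replicate 2 and 5 without GFP replicate 2.

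Between GCas9 and Cas9 in set B, 6 members were lower at an unadjusted p under 0.05 (Ccna2, Ccnb1, Melk, Ccnb2, Chek1 and Aurkb), where 1.57% of all genes were, and 0 passed after adjustment (0% of all genes did). The median was -0.41 over the members and 0.00 over all genes, and 0 members were without overlap, where 0.797% of all genes were. Without Cas9 replicate 1, all remaining Cas9 libraries lay above all GCas9 libraries for 7 members, and without Cas9 replicate 2 or GCas9 replicate 2 the same held for 2. edgeR and DESeq2 called 0 members and 0 of all genes. At an unadjusted p under 0.05 they gave 5 and 4 members, where 592 and 488 of all genes were. The limma count of 6 was 0 without Cas9 replicate 3, where 1.35% of all genes were lower. It was 1 without Cas9 replicate 4 (1.56%) and 2 without Cas9 replicate 2 (1.26%). Without GCas9 replicate 4 it was 3, of which 1 was higher, where 2.39% of all genes were lower and 2.40% higher. The median was -0.62 without Cas9 replicate 1, -0.24 without Cas9 replicate 3 and -0.16 without GCas9 replicate 4. Between Cas9 and GFP, 0 members passed and 0 reached an unadjusted p under 0.05, where 0% and 3.01% of all genes did (lower). edgeR and DESeq2 called 0 members, where 0 and 10 of all genes passed. Neither gave a member at an unadjusted p under 0.05, where 943 and 834 of all genes were. The median there was -0.22 over the members, -0.04 without Cas9 replicate 1, -0.37 without GFP replicate 4 and -0.38 without Cas9 replicate 3. It was -0.14 without GFP replicate 1. Leaving out GFP replicate 4 or Cas9 replicate 3 gave 2 members lower at an unadjusted p under 0.05. The shares of all genes were then 2.72% and 2.41%. Leaving out Cas9 replicate 2 gave 1 (2.39%), as did leaving out GCas9 replicate 4 (3.26%).

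The difference between GCas9 and Cas9 was higher in set A than in set B for 31 of the 32 members tested in both. Of all 14486 genes, 50.5% were higher. The median was 1.17 over the members and 0.00 over all genes, and 0.62 over the fewer members with a mean of at least 50. At an unadjusted p under 0.05, the estimate was higher in set A for 17 members, where 1.91% of all genes were, and 0 passed after adjustment (0% of all genes did, smallest member limma adjusted p = 1.00). edgeR and DESeq2 called 0 members and 0 of all genes. At an unadjusted p under 0.05 they gave 17 and 19 members, where 676 and 756 of all genes were. The largest estimate of the 32 was that of Aurkb, at 2.41 ± 0.74 (SE). The count of 17 was 6 without GCas9 replicate 3 of set A, where 1.16% of all genes were higher. It was 9 without Cas9 replicate 3 of set B (1.42%) and 10 without GCas9 replicate 4 of set B (2.41%). It was 11 without Cas9 replicate 2 or GCas9 replicate 1 of set A, or Cas9 replicate 4 of set B. The medians without each of these libraries lay between 0.89 and 1.26.

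Among the 4 genes of nucleotide supply and replication, Rrm1 and Rrm2, the large and the small subunit of ribonucleotide reductase, differed in their spread. Rrm1 was at 461, 441 and 475 normalized counts in WT, 481, 456 and 468 with Cas9 and 538, 457 and 619.8 with GCas9 of set A. In set B it was at 285, 261, 301 and 268 with GFP, 286, 245, 315 and 271 with Cas9 and 246, 272, 240.0 and 211 with GCas9. Its groups overlapped in every comparison. Rrm2, the subunit made in S phase, was at 93.4, 62.1 and 107 in WT, 48.9, 71.0 and 73.8 with Cas9 and 145, 85.4 and 205 with GCas9. Its set B levels were 88.4, 69.3, 84.8 and 44.6 with GFP, 16.9, 41.7, 96.8 and 72.4 with Cas9 and 64.5, 51.7, 36.1 and 11.2 with GCas9. All GCas9 libraries of set A were above all Cas9 libraries, while GCas9 replicate 2 lay within the WT range and the groups of set B overlapped. Pcna was at 605, 554 and 592 in WT, 669.7, 611 and 603 with Cas9 and 659.7, 611 and 788 with GCas9. The set B libraries were at 328, 288, 286 and 272 with GFP, 280.0, 299, 382 and 282 with Cas9 and 274, 289.7, 303 and 219 with GCas9. Its GCas9 libraries lay above the WT libraries by a narrow margin and overlapped those of Cas9. Tyms, the thymidylate synthase, had group means of 39.2 to 48.6 (set A) and 36.96 to 50.2 (set B). The 4 genes had a median log2 fold change of 0.21 between GCas9 and Cas9 in set A and of -0.30 between GCas9 and GFP in set B.

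The 6 genes of the G1/S transition hold both the flattest members and one of the most separated. Ccne1, cyclin E1, was at 89.5, 139.6 and 119 in WT, 102, 97.6 and 113 with Cas9 and 114, 78.9 and 116 with GCas9. For set B, levels were 88.4, 70.1, 47.7 and 53.7 with GFP, 74.5, 61.2, 69.6 and 44.2 with Cas9 and 76.0, 72.2, 54.6 and 79.6 with GCas9. It was the 1 member with a lower estimate in both GCas9 comparisons of set A, and its groups overlapped throughout. Ccne2, cyclin E2, was at 192, 164 and 142 in WT, 151, 158 and 137 with Cas9 and 167, 143 and 192 with GCas9. Levels in set B were 75.8, 67.5, 69.6 and 75.5 with GFP, 46.3, 90.3, 62.6 and 81.0 with Cas9 and 43.8, 71.1, 55.4 and 61.3 with GCas9, and it overlapped in every comparison. E2f1, an activator of S phase genes, was at 217, 218 and 171 in WT, 188, 178 and 177 with Cas9 and 227, 189 and 197 with GCas9. In set B it was at 89.5, 109, 133 and 105 with GFP, 116, 107, 135 and 115 with Cas9 and 111, 114, 100.3 and 104 with GCas9. The one separation was between GCas9 and Cas9 of set A, by the width of 189 against 188.

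Mxd3, a Max partner of the Mad family that is expressed in S phase, was at 38.5, 37.9 and 35.6 in WT, 16.6, 30.6 and 15.2 with Cas9 and 44.1, 47.5 and 53.2 with GCas9. The 3 groups of set A did not overlap, with Cas9 lowest and GCas9 highest. Its log2 fold change was -0.88 ± 0.28 (SE) between Cas9 and WT (limma adjusted p = 0.41) and 1.24 ± 0.28 between GCas9 and Cas9 (limma adjusted p = 0.89). Its set B levels were 44.2, 26.5, 36.2 and 35.5 with GFP, 26.0, 40.3, 26.0 and 44.2 with Cas9 and 11.5, 43.1, 17.7 and 31.1 with GCas9, where the groups overlapped. The difference of GCas9 from Cas9 was higher in set A by 1.75 ± 0.50 (SE, limma adjusted p = 1.00). The set A groups rest on 120, 62 and 137 reads. The exons of Mxd3 overlap those of Prelid1 on the other strand over 105 bases, and Prelid1 was at means of 1809, 1773 and 1782 in the 3 groups of set A. E2f8, a repressor of the E2F family, and Chek1, the S phase checkpoint kinase, had group means of 19.6 to 44.0 and 34.4 to 53.3 in set A, lowest with Cas9 and highest with GCas9 in both.

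Among the 9 cyclins, kinases and anaphase-promoting complex genes of S phase to mitosis, Ccna2, cyclin A2, had the smallest SE of the fit in both sets. It was at 167, 159 and 140.4 in WT, 145, 165 and 115 with Cas9 and 222, 188 and 265 with GCas9 of set A. All GCas9 libraries lay above those of both other groups, which overlapped each other. The log2 fold change was 0.52 ± 0.17 against WT (limma adjusted p = 0.72) and 0.67 ± 0.17 against Cas9 (limma adjusted p = 0.89). The set B libraries were at 130.5, 127, 109.6 and 94.6 with GFP, 76.8, 103, 103 and 94.5 with Cas9 and 59.9, 80.8, 76.2 and 69.3 with GCas9. Here all GCas9 libraries lay below all GFP libraries, and 1 Cas9 library, replicate 1, lay within the GCas9 range. The log2 fold change was -0.68 ± 0.15 against GFP (limma adjusted p = 0.31), -0.39 ± 0.15 against Cas9 (limma adjusted p = 0.99) and -0.29 ± 0.15 between Cas9 and GFP (limma adjusted p = 0.79). The difference of GCas9 from Cas9 was higher in set A than in set B by 1.06 ± 0.23 (limma adjusted p = 1.00). The exons of Ccna2 overlap those of Exosc9 on the other strand over 510 bases. Exosc9 had a log2 fold change of 0.07 ± 0.13 between GCas9 and Cas9 of set A and of -0.06 ± 0.10 between GCas9 and GFP.

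Cdk1, the kinase that drives entry into mitosis, was at 36.6, 15.5 and 30.7 in WT, 30.2, 25.6 and 29.3 with Cas9 and 54.7, 31.3 and 150.4 with GCas9. GCas9 replicate 3 was far above the other 2, of which replicate 2 lay within the WT range. For set B, levels were 27.4, 25.7, 35.3 and 17.3 with GFP, 5.65, 13.9, 26.0 and 17.2 with Cas9 and 13.1, 22.6, 20.9 and 1.59 with GCas9, and the groups overlapped. Ccnb1, cyclin B1, was at 40.4, 10.3 and 32.6 in WT, 25.0, 25.6 and 17.2 with Cas9 and 44.1, 25.9 and 61.1 with GCas9. Levels in set B were 36.8, 18.8, 57.2 and 26.4 with GFP, 18.1, 29.2, 36.6 and 61.4 with Cas9 and 23.8, 19.4, 16.9 and 3.98 with GCas9. Between GCas9 and Cas9 of set B its log2 fold change was -1.23 ± 0.50 (limma adjusted p = 0.99), with overlap. Ccnb2, cyclin B2, had group means of 26.9 to 54.1 (set A) and 9.10 to 22.4 (set B). It was listed at 18.3 in GCas9 replicate 2 of set B and at 5.58 to 6.91 in the other 3 libraries of that group.

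Cdc20, an activator of the anaphase-promoting complex, was at 44.3, 42.2 and 52.4 in WT, 51.0, 35.5 and 54.6 with Cas9 and 68.1, 59.4 and 101 with GCas9. Its GCas9 libraries lay above both other groups, with a log2 fold change of 0.67 ± 0.25 against WT (limma adjusted p = 0.72). In set B it was at 34.7, 47.0, 78.2 and 30.9 with GFP, 22.6, 23.6, 47.2 and 39.3 with Cas9 and 29.2, 28.0, 28.1 and 13.5 with GCas9. All GCas9 libraries lay below all GFP libraries, by a narrow margin, and within the range of Cas9 or below it. Melk, a kinase of mitotic cells, was at 85.7, 73.3 and 115 in WT, 71.8, 88.7 and 122 with Cas9 and 95.9, 86.4 and 133 with GCas9, which overlapped. Its set B levels were 30.5, 27.4, 33.4 and 32.8 with GFP, 26.0, 43.1, 35.4 and 35.6 with Cas9 and 23.8, 23.7, 29.7 and 19.9 with GCas9. Between GCas9 and Cas9 its log2 fold change there was -0.50 ± 0.21 (limma adjusted p = 0.99), with overlap through GCas9 replicate 3. The mitotic kinases Plk1 and Aurka and the ubiquitin-conjugating enzyme Ube2c had their highest group mean of set A with GCas9, at 111, 63.2 and 66.2, and their lowest of set B with GCas9, at 15.6, 23.3 and 17.5.

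**Figure D3:**
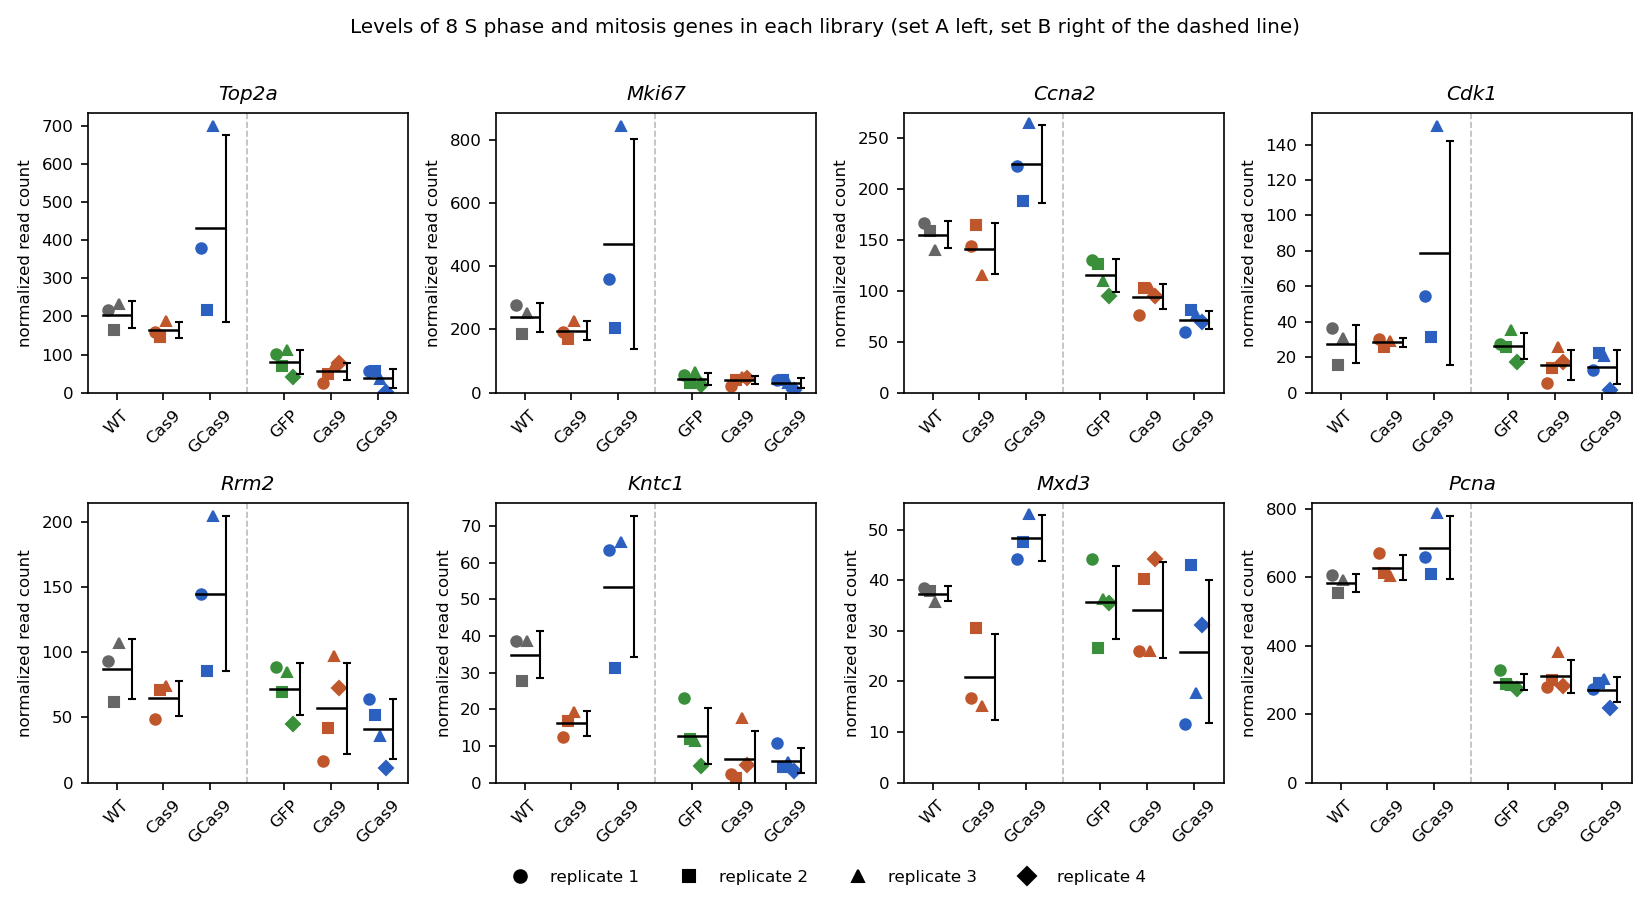
Normalized read counts of 8 members in each library, with set A left and set B right of the dashed line; points are libraries, horizontal lines group means and bars beside them SD (n = 3 or 4). Top2a reaches 699 in GCas9 replicate 3 of set A and 1.59 in GCas9 replicate 4 of set B, while Mxd3 shows 3 groups without overlap in set A.

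Mki67, which coats mitotic chromosomes and is the usual marker of dividing cells, was at 276, 187 and 253 in WT, 193, 169 and 227 with Cas9 and 361, 205 and 844 with GCas9. GCas9 replicate 2 lay within the range of both other groups and replicate 3 far above it. The log2 fold change was 0.75 ± 0.43 against WT (limma adjusted p = 0.75) and 1.02 ± 0.43 against Cas9 (limma adjusted p = 0.90). The set B libraries were at 54.7, 29.9, 64.8 and 23.7 with GFP, 20.3, 40.3, 48.4 and 45.4 with Cas9 and 40.7, 40.9, 29.7 and 7.96 with GCas9, with overlap in every comparison. Its log2 fold change between GCas9 and GFP was -0.63 ± 0.48 (limma adjusted p = 0.83). Top2a, the topoisomerase that untangles chromosomes, was at 218, 164 and 233 in WT, 158, 147 and 188 with Cas9 and 379, 216 and 699 with GCas9. Every GCas9 library lay above every Cas9 library, and replicate 2 lay within the WT range. The log2 fold change was 0.92 ± 0.36 against WT (limma adjusted p = 0.72) and 1.23 ± 0.36 against Cas9 (limma adjusted p = 0.89). For set B, levels were 101, 69.3, 112 and 41.9 with GFP, 24.8, 50.04, 69.6 and 77.4 with Cas9 and 56.0, 56.0, 36.9 and 1.59 with GCas9. The last of these rests on 2 reads, and all groups overlapped. Its log2 fold change between GCas9 and GFP was -1.69 ± 0.79 (limma adjusted p = 0.77), and it ran from -2.11 to -0.63 as each library was left out.

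Of the 7 kinetochore and checkpoint genes, Kntc1, a subunit of the complex that brings checkpoint proteins to kinetochores, had the smallest p between GCas9 and Cas9 in set A. It was at 38.5, 27.6 and 38.6 in WT, 12.5, 16.8 and 19.2 with Cas9 and 63.3, 31.3 and 65.6 with GCas9. Cas9 lay below both other groups without overlap, and GCas9 replicate 2 lay within the WT range. The log2 fold change was 1.61 ± 0.33 between GCas9 and Cas9 (limma adjusted p = 0.89) and -1.07 ± 0.33 between Cas9 and WT (limma adjusted p = 0.41). In set B it was below the filter, at 23.2, 12.0, 11.4 and 4.55 with GFP, 2.26, 1.39, 17.7 and 4.91 with Cas9 and 10.7, 4.31, 5.62 and 3.19 with GCas9. These rest on 53, 22 and 29 reads per group, and they overlapped. Cenpf, a late cell cycle protein of the kinetochore, was at 103, 65.5 and 72.2 in WT, 64.5, 52.3 and 63.7 with Cas9 and 112, 74.6 and 143 with GCas9, with Cas9 below both others. Levels in set B were 25.3, 29.9, 35.3 and 12.7 with GFP, 11.3, 13.9, 23.6 and 24.6 with Cas9 and 20.7, 10.8, 8.83 and 6.37 with GCas9. Its log2 fold change between GCas9 and GFP was -1.11 ± 0.41 (limma adjusted p = 0.73), with overlap through GFP replicate 4.

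Ndc80, which binds kinetochores to microtubules, was at 15.4, 13.8 and 10.9 in WT, 7.28, 14.8 and 24.3 with Cas9 and 24.0, 19.4 and 38.5 with GCas9, above WT without overlap on 43 and 77 reads. In set B its groups overlapped, between 1.82 and 14.3 normalized counts. The checkpoint kinases Bub1, Bub1b and Ttk and the motor Cenpe had group means of 14.4 to 38.1, 44.9 to 100.3, 12.9 to 28.2 and 80.1 to 105 in set A, each highest with GCas9. In Cas9 replicate 1 of set B no read of Bub1 or Ttk was found, and a count of 0 allows up to 3 reads, counting error only. Ttk was at 1.54 to 2.41 with GCas9 of set B and at 5.46 to 12.6 with GFP, on 10 and 41 reads in all. The 7 genes had a median log2 fold change of 0.87 between GCas9 and Cas9 in set A.

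All 9 genes of the spindle and of cytokinesis had a higher estimate with GCas9 than with WT or Cas9 in set A, by medians of 0.43 and 0.74, and a lower estimate than with GFP in set B, by a median of -0.71. Kif11, the motor that separates spindle poles, was at 120.3, 116 and 138 in WT, 91.5, 75.9 and 111 with Cas9 and 169.7, 119.9 and 248 with GCas9. Cas9 lay below both other groups, with a log2 fold change of -0.43 ± 0.25 against WT (limma adjusted p = 0.50), and GCas9 replicate 2 lay within the WT range. In set B it was at 37.9, 38.5, 70.5 and 28.2 with GFP, 21.5, 18.1, 38.9 and 38.1 with Cas9 and 32.2, 35.5, 32.1 and 8.76 with GCas9, with overlap. Kif23, the kinesin of the spindle midzone, was at 77.0, 66.4 and 107 in WT, 66.6, 75.9 and 73.8 with Cas9 and 118, 99.4 and 114 with GCas9. It was 1 of 2 members in which GCas9 replicate 3 was not the highest of its group. Its set B levels were 35.8, 27.4, 27.6 and 15.5 with GFP, 11.3, 26.4, 16.5 and 17.2 with Cas9 and 16.9, 21.5, 14.4 and 13.5 with GCas9. Between Cas9 and GFP its log2 fold change was -0.55 ± 0.31 (limma adjusted p = 0.81), with overlap.

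Tpx2, which nucleates spindle microtubules and activates Aurka, was at 98.2, 94.0 and 121 in WT, 93.6, 80.9 and 94.1 with Cas9 and 135, 108 and 179 with GCas9, all above Cas9. The set B libraries were at 40.0, 63.3, 58.1 and 38.2 with GFP, 19.2, 30.6, 51.9 and 33.2 with Cas9 and 53.0, 52.8, 46.5 and 25.5 with GCas9. Between Cas9 and GFP its log2 fold change was -0.60 ± 0.31 (limma adjusted p = 0.79), with overlap. Aurkb, the kinase of the chromosomal passenger complex, was at 28.9, 22.4 and 32.6 in WT, 13.5, 16.8 and 29.3 with Cas9 and 43.1, 25.9 and 93.9 with GCas9, with overlap. For set B, levels were 30.5, 27.4, 38.1 and 12.7 with GFP, 7.90, 23.6, 33.0 and 17.2 with Cas9 and 14.6, 6.46, 11.2 and 3.19 with GCas9. GCas9 lay below 3 of the 4 GFP libraries, with a log2 fold change of -1.58 ± 0.50 (limma adjusted p = 0.72). Birc5, its partner in that complex, had group means of 24.2, 18.6 and 9.07 in the GFP, Cas9 and GCas9 groups of set B, with no read in GCas9 replicate 4. The midzone and cytokinesis genes Prc1, Ect2 and Nusap1 had their highest group mean of set A with GCas9, at 109, 60.3 and 74.7. Their lowest of set B was also with GCas9, at 38.0, 12.3 and 15.8. Kif20a, whose Cdc23 overlap is given above, had means of 46.0, 38.8 and 74.1 in set A and of 144, 140.0 and 133 in set B.

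Genes of the same pathway that are not members were described by lists chosen with earlier results known. Of 45 further mitosis genes, such as the condensin subunit Smc2 and the transcription factor Foxm1, 43 had a higher estimate with GCas9 than with Cas9 in set A (median 0.67). In set B, 34 of the 37 tested had a lower estimate with GCas9 than with GFP (median -0.52). Of 34 further replication genes tested, such as the Mcm helicase subunits, 33 had a higher estimate with GCas9 than with Cas9 in set A, by a median of 0.27, and 23 of 32 had a lower one than with GFP in set B, by a median of -0.17. Of 30 genes of G1 cyclins, inhibitors and the RB and E2F families, 22 were higher by estimate in the first of these comparisons (median 0.07) and 21 of 29 lower in the second (median -0.07). By limma, 0 genes of these 3 lists passed in any of the comparisons.

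Levels of markers of other cells differed along with some of these values, and their part in the results was not tested. The mean log2 level of 12 neuroblast and subventricular zone markers was 8.81 to 9.16 in WT, 8.59 to 8.82 with Cas9 and 9.00 to 9.29 with GCas9 of set A, so that Cas9 and GCas9 did not overlap. It was 6.81 to 7.40 with GFP, 6.35 to 7.39 with Cas9 and 6.31 to 7.11 with GCas9 of set B. Of the 12, 11 had a higher estimate with GCas9 than with Cas9 in set A (median 0.44) and 11 a lower one than with GFP in set B (median -0.33). Their summed level was 11562 to 12679 in WT, 10162 to 11168 with Cas9 and 11729 to 12474 with GCas9, and none was at 0 throughout a group. Dcx, the microtubule protein of migrating neuroblasts, was at 1095, 1016 and 923 with GCas9 and 762, 786 and 692 with Cas9 of set A. GCas9 replicate 3, the library with the highest member levels, was the lowest of its group for Dcx. By the mean log2 level of the 12 markers, however, it lay between the other GCas9 libraries of set A.

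The same library was the highest of all 9 for immune genes. The mean log2 level of 20 interferon-stimulated genes was 11.12 in it, against 7.44 and 6.12 in the other GCas9 libraries, 6.11 to 8.29 with Cas9 and 5.35 to 5.53 in WT. For 12 T and NK cell markers it was 7.04 in it, 3.00 in each of the other GCas9 libraries, 2.72 to 4.61 with Cas9 and 2.09 to 2.49 in WT, where Gzma and Gzmb were at 0 in every library. The summed level of these markers, 3405 to 3971 in WT, 3574 to 3899 with Cas9 and 3494 to 4343 with GCas9, is mostly Cd4, at 3032 to 3899 in set A. Cd3e, of the T cell receptor complex, was at 126 in that library and at 2.88 and 6.48 in the other 2. For 8 B and plasma cell markers the mean log2 level was 9.67 in it, 5.94 and 5.70 in the other 2, 4.77 to 8.32 with Cas9 and 3.73 to 4.11 in WT, on summed levels of 1924 to 45675, 1092 to 16568 and 487 to 635. Cas9 replicates 1 and 3, at 7.93 and 8.32 on that B cell scale, had mean member levels of 5.71 and 5.84, beside 5.74 in Cas9 replicate 2 at 4.77.

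**Figure D4:**
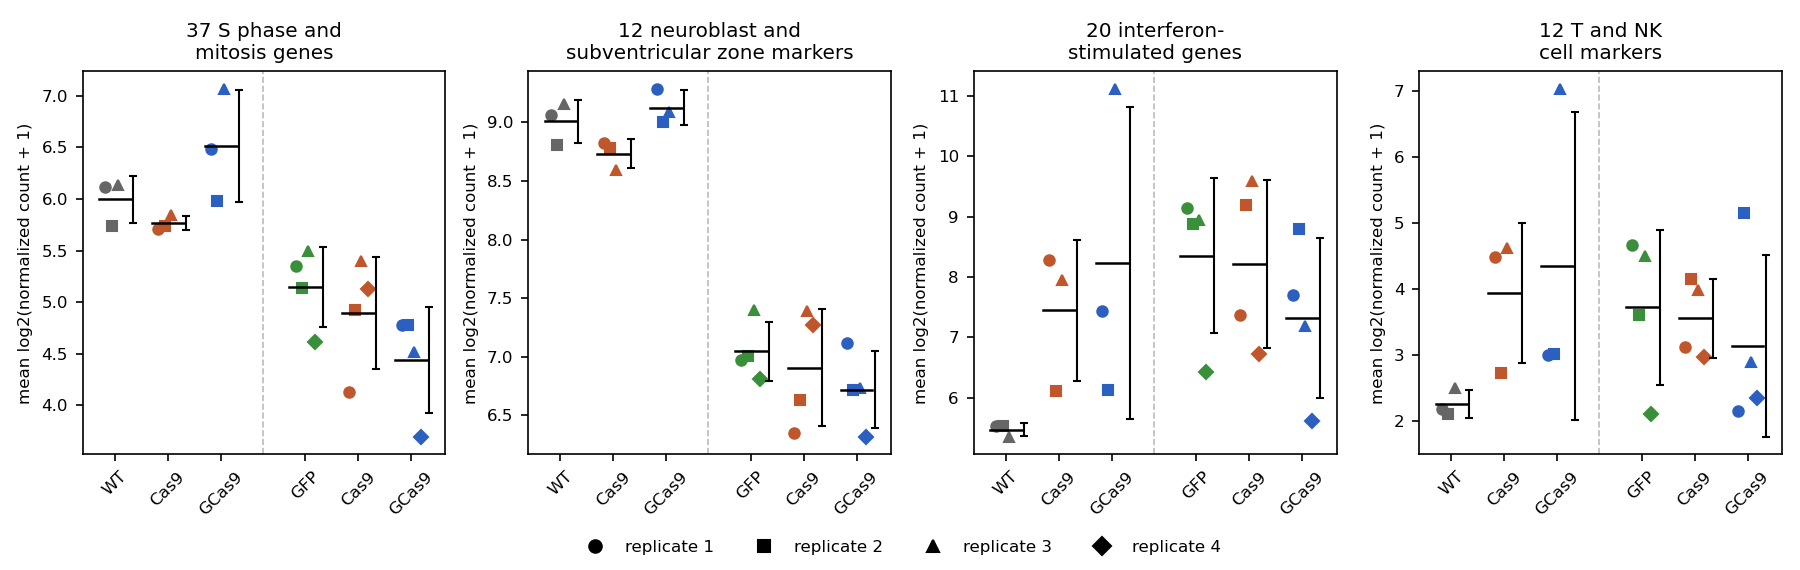
Mean log2(normalized count + 1) of the 37 members and of 3 marker lists in each library, with set A left and set B right of the dashed line; points are libraries, lines group means and bars SD. GCas9 replicate 3 of set A is the highest for the members (7.07), interferon-stimulated genes (11.12) and T and NK markers (7.04), but not for neuroblast markers (9.09).

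In set B, the lowest library for the members, GCas9 replicate 4 (mean log2 level 3.69), was also the lowest of the 12 for the neuroblast markers (6.31) and the interferon-stimulated genes (5.61). GCas9 replicate 2, the highest of its group for T and NK markers (5.16), was at 4.78 for the members, the level of replicate 1 (4.78), which had 2.15 for those markers. Between GCas9 and GFP, 20 of 20 interferon-stimulated genes had a lower estimate (median -1.08), as had 8 of 8 B and plasma cell markers (median -1.17) and 5 of 6 tested T and NK markers (median -0.67). Between GCas9 and Cas9 these counts were also 20, 8 and 5, with medians of -0.87, -1.68 and -0.80. The mean log2 level of the interferon-stimulated genes was 6.43 to 9.15 with GFP, 6.72 to 9.59 with Cas9 and 5.61 to 8.80 with GCas9, so the groups overlapped, and summed levels were 2557 to 14667, 3238 to 22133 and 1775 to 10844. The summed B and plasma cell markers were at 1834 to 15122, 3652 to 10842 and 773 to 19140, and the T and NK markers at 1384 to 1777, 1275 to 1754 and 1556 to 1804. In set A, 19 of 20 interferon-stimulated genes had a higher estimate with GCas9 than with Cas9 (median 0.78), beside 5 of 8 T and NK markers (0.32) and 4 of 8 B and plasma cell markers (0.05). Oligodendrocyte precursor markers spanned 9.67 to 10.01 across set A, and across set B 8.08 to 8.42. Of these 8 markers, 7 had a lower estimate with GCas9 than with Cas9 in set A (median -0.21), as had all 8 oligodendrocyte markers (median -0.51). The precursor list includes the lineage genes Olig1, Olig2 and Sox10, so it does not mark precursors alone, and its part was not tested.

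Markers of 7 further cell classes had the values that follow. Between GCas9 and Cas9 in set A, all 8 oligodendrocyte markers (median -0.51), all 7 endothelial markers (-0.22) and all 7 markers of mural cells and fibroblasts (-0.22) had a lower estimate. The summed oligodendrocyte markers were at 196791 to 237253 in WT, 229629 to 380602 with Cas9 and 201836 to 218156 with GCas9. In the same comparison the medians were -0.01 for 9 astrocyte, -0.04 for 12 microglia, -0.06 for 13 activated microglia and macrophage and -0.60 for 7 ependymal and choroid plexus markers. GCas9 replicate 3 was the highest library of set A for both microglia lists. Its mean log2 level was 10.61 for microglia, beside 9.70 in each of the other GCas9 libraries and 9.72 to 10.24 with Cas9. For activated microglia and macrophages it was 9.34, beside 8.18 and 7.95 in those and 7.99 to 8.91 with Cas9. Against WT, the activated microglia and macrophage markers had a higher estimate in 13 of 13 with Cas9 (median 2.44) and in 12 of 13 with GCas9 (median 2.62). The members had medians of -0.20 and 0.52 there. Gpnmb, a lysosomal glycoprotein of phagocytes, passed in both, with a log2 fold change of 2.94 ± 0.28 with Cas9 (SE, limma adjusted p = 0.038) and of 3.31 ± 0.28 with GCas9 (limma adjusted p = 0.014). Cas9 replicate 1 of set A stood apart for the summed ependymal and choroid plexus markers, at 290218, beside 814 and 2592 in the other Cas9 libraries, 848 to 1245 in WT and 1396 to 12023 with GCas9. In set B, Cas9 replicate 1 was at 10566 and the other 11 libraries were at 287 to 703. Between GCas9 and GFP of set B, the medians of these 7 lists lay between -0.27 and 0.24. None of these 7 lists had a marker at 0 throughout a group, and their part in the values of the members was not tested.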

How the data were processed

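Per the labels' protocols, column-purified total RNA went into SMARTer cDNA synthesis and Nextera XT library preparation. Tools named in the submitters' processing notes are DESeq2, HTSeq, SAMtools, R 3.3.3 and STAR 2.5.2b, with GRCm38.p3 as the genome build. The deposited signal is a normalized read count per gene symbol that the authors made with 1 size factor per library. All values (100.0%) were whole multiples of 1 step within 0.001 reads, from which whole reads were recovered, and 13121 symbols had no read. cDNA was amplified, so counting intervals understate error.

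In R 4.3.3, limma 3.58.1 (linear model, trended variance, two-sided) was fitted per set with 3 groups to log2(normalized count + 1), for genes with a mean of at least 10, and p-values were adjusted by Benjamini-Hochberg over all genes tested. A fold change on this scale understates the change of low genes. A fit of all 21 libraries compared the sets. As alternatives, edgeR 4.0.16 and DESeq2 1.42.0 were run on the recovered reads of all libraries, with the same filter. Further alternatives were limma fits with a pseudocount of 0.5, a mean of at least 50 or no filter. Others used TMM factors, the replicate number as a block, or each library left out. The limma fit was also run on simulated counts with known changes, and how many of these it called is not reported here. Exon lengths and positions are from GENCODE M21 (GRCm38), by symbol.

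The members and all lists were chosen with earlier results of these data known. Given library by library were the 3 members of smallest p in each comparison, members without overlap between GCas9 and WT in set A, and a fixed set (Mki67, Top2a, Ccna2, Cdk1, Ccnb1, Pcna, Rrm1, Rrm2, Ccne1, Ccne2, E2f1 and Mxd3). Drd1 and Jchain were not found under those symbols.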

Additional observations from a re-analysis of the deposited data

Results flagged for a closer look

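Among 114 sets of 4 libraries checked, for each of the 37 members and for their mean log2 level in the 3 groups of set B, 4 had 1 library farther from the rest than Dixon's 95% limit for 4 values, where chance gives about 1 in 20. Ccnb2 was at 18.31 in GCas9 replicate 2, with the other GCas9 libraries at 5.575 to 6.909. The other 3 lay in GCas9 replicate 4, the library that was lowest of its group for 27 of the 37 members. Cdc20 was at 13.54 there (others 28 to 29.17), Kif11 at 8.761 (others 32.1 to 35.54) and Bub1 at 1.593 (others 5.385 to 6.142), the last on 2 reads. Groups of 3 were not checked. The cause was not tested.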

How the results depend on the processing

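The labels do not say what libraries with the same number share. Deviations of same-numbered libraries correlated above 0.1 in 6 of 9 pairs of set A and 7 of 12 of set B, and those of differently numbered libraries in 4 of 18 and 6 of 36. The best partner was sought among the 3 libraries of another group in set A and the 4 in set B. It had the same number in 12 of 18 and 15 of 24 checks. This is a hint from the data of something shared, but not every pair showed it, so libraries were not treated as paired. With the replicate number as a block (the replicate block), 0 members passed in any comparison, and the genes passing over all were 2 for Cas9 against WT, 2 for GCas9 against WT and 5 for GCas9 against GFP. Members at an unadjusted p under 0.05 were then 13, not 6, for GCas9 against WT and 3, not 2, for Cas9 against WT. They were 1, not 0, for Cas9 against GFP. In the comparisons that gave 21, 10, 6 and 17 without the block, they were 23, 11, 6 and 17. Over all genes, in either direction, the first 3 comparisons gave 1368, 2220 and 1006 at that p, not 1078, 1882 and 963. The others gave 982, 1109, 668 and 676, not 868, 999, 592 and 600. Without the block, 1 gene passed for Cas9 against WT, 1 for GCas9 against WT, 0 for GCas9 against GFP and 0 otherwise. With edgeR the first of these was 0. With DESeq2 they were 116, 218 and 41, then 10 for Cas9 against GFP and 2 for GCas9 against Cas9 in set A, and 1 member (Ccna2, GCas9 against GFP) passed. With no filter 1 gene differed between the sets, and with a mean of at least 50 the median member difference between the sets was 0.62, not 1.17, and the set B medians were -0.06 (Cas9 against GFP), -0.27 (GCas9 against GFP) and -0.23 (GCas9 against Cas9), not -0.22, -0.70 and -0.41, on fewer genes tested.

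With each library left out, 0 members passed in any comparison. Genes passing then ran from 0 to 7 for Cas9 against WT, 0 to 2 for GCas9 against WT, 0 to 1 for GCas9 against Cas9 in set A, 0 to 2 for Cas9 against GFP and 0 to 9 for GCas9 against GFP. The median over the members for Cas9 against WT ran from -0.40 to -0.16. The log2 fold change of Mki67 ran from -0.36 to 0.16 for Cas9 against GFP, above 0 without GFP replicate 1 (0.03), GFP replicate 3 (0.11) or Cas9 replicate 1 (0.16), and from -0.79 to 0.00050 for GCas9 against Cas9 in set B, above 0 without GCas9 replicate 4. The other medians of the members and the other single-member values kept their sign under every alternative run. The cause was not tested. Set B members rest on few reads, down to 10 in a group for Ttk, which limits the differences that set B could show.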
